A study of Homo sapiens with 9 samples.

Results

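The genes described here set BE(2)C apart from both other neuroblastoma lines of the study, Kelly and SH-SY5Y. A gene was a member if each of its 3 BE(2)C values lay at least 4-fold above, or at least 4-fold below, every one of the 6 values of the other lines, with each value on the higher side at 10 or more. Of 19706 gene symbols, 190 were members: 44 were higher in BE(2)C (0.223% of the symbols) and 146 were lower (0.741%). All 190 were among the 13077 genes that passed the filter on low values, of which they made up 0.336% and 1.12%. The rule used the values of BE(2)C and of the other lines, so their difference is given as a description, with no test. The rule bounded the values of Kelly and SH-SY5Y but did not use the difference between them, which was tested.

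Neuroblastoma is a childhood tumour of the sympathetic nervous system that arises from cells of the neural crest. Amplification of MYCN, a transcription factor of the MYC family, marks its high-risk form. The labels give MYCN as amplified in BE(2)C and in Kelly and as not amplified in SH-SY5Y, and they name no other allele. All cells were untreated, were grown in the same medium, and gave polyadenylated RNA for 3 libraries per line. BE(2)C is a clone of the line SK-N-BE(2), and SH-SY5Y is a subclone of SK-N-SH. What belongs to BE(2)C as a single clone and what to its genotype cannot be told apart. Whether the libraries of a line are separate cultures is not in the labels. The p-values therefore reflect library-to-library spread, possibly technical only.

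Levels are given as gene TPM, the deposited length-normalised transcript abundance (TPM) rescaled so that the genes of each library share the same total, with spike-ins left out. TPM keeps no sequencing depth, which is unknown here, and a value of 0 is given as listed. Some genes that every cell uses were listed very low or at 0, and 3 of them are given here, chosen after their values were seen. The chaperone gene HSPA8 ran from 0.644 to 13.04 over all libraries. The tubulin gene TUBB ran from 19.5 to 31.3 in BE(2)C and Kelly and from 0 to 0.473 in SH-SY5Y. VARS, a transfer RNA synthetase gene, was listed at 0 in every BE(2)C library and from 4.55 to 7.80 elsewhere. A low value or a 0 of a member therefore need not mean that its RNA was scarce, and the cause was not tested. MYCN ran from 4320 to 5793 gene TPM in BE(2)C, from 5947 to 6393 in Kelly and from 30.1 to 33.1 in SH-SY5Y, as the labels have it. Noradrenergic identity genes, which define most neuroblastoma cells, summed to 11109 to 12372 in BE(2)C, 17054 to 18902 in Kelly and 8865 to 9292 in SH-SY5Y. Markers of leukocytes, epithelium, liver and red cells, and endothelium each summed to under 17 in every library. Schwann and glial markers summed to more, 16.6 to 27.2 in BE(2)C, 33.4 to 40.4 in Kelly and 25.0 to 26.9 in SH-SY5Y. Mitochondrially encoded genes took 24.5% to 35.3% of the gene total in BE(2)C and 16.5% to 19.8% in the other lines. Other genes of BE(2)C therefore hold a smaller part of the total. With a trimmed-mean factor in place of the plain total, 63 genes were members on the higher side and 112 on the lower. For 61 abundant spike-in RNAs, line means were compared after each library was centred on its spike-in median. The largest difference of BE(2)C was 2.30-fold from Kelly and 1.13-fold from SH-SY5Y. The rule compares single libraries and reaches values near 0, so these differences set no bound for the 4-fold of the rule.

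**Figure D1:**
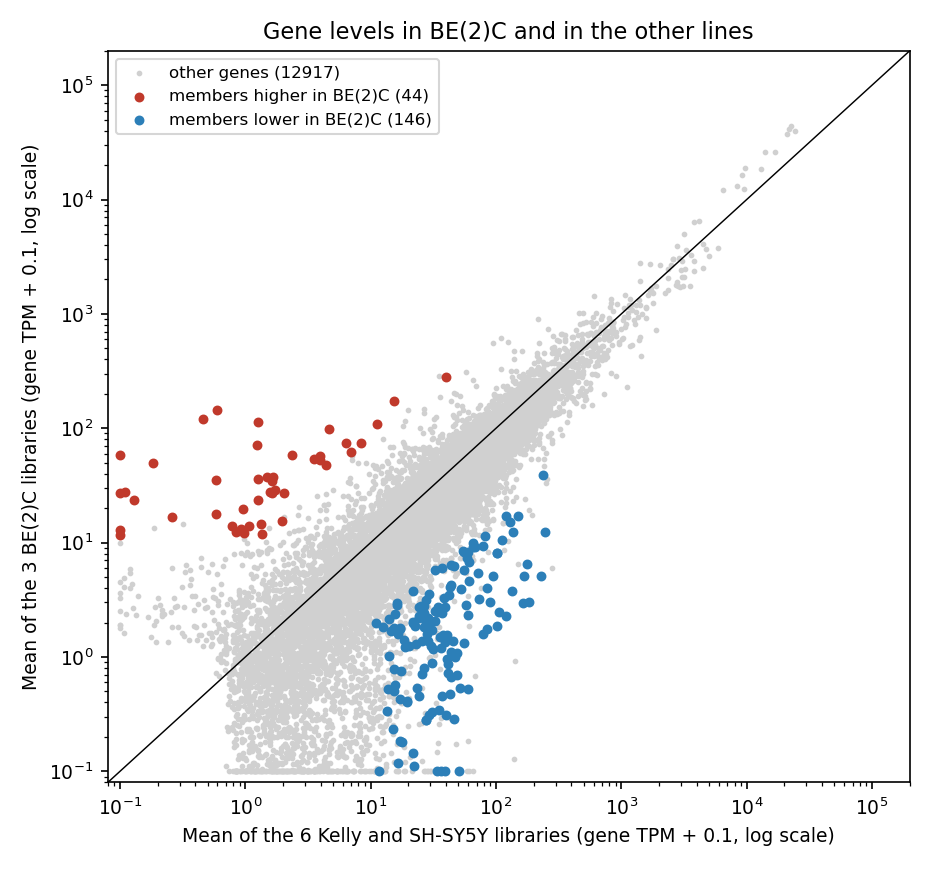
Mean gene TPM in the 3 BE(2)C libraries (vertical) against the mean of the 6 Kelly and SH-SY5Y libraries (horizontal), both with 0.1 added and on log axes, for 13107 genes that reached 1 gene TPM in 3 or more libraries. The 44 members higher in BE(2)C (red) lie above the line of equal levels and the 146 lower members (blue) below it.

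Without a fold threshold, the BE(2)C values lay wholly above all others in 894 of the 13077 genes (6.84%) and wholly below in 3749 (28.7%), which is the background to the absence of overlap in the members. These counts use gene TPM with plain totals. On that scale the median log2 difference of BE(2)C from the other lines over all genes was -0.38, against -0.03 with trimmed-mean factors. How far the scale sets the 2 counts was not tested. The distance between the groups is given as a gap, the lowest value of the higher side divided by the highest value of the lower side. The median gap was 7.64 over the 40 higher members with a lower side above 0, and 8.10 over 141 such lower members. Another 4 higher members were listed at 0 in all 6 other libraries, and 5 lower members in all 3 BE(2)C libraries. No gap is given for these. Higher members had a median of 34.6 gene TPM over their BE(2)C means, against 1.64 over their Kelly means and 0.748 over their SH-SY5Y means. Lower members had medians of 1.76, 27.0 and 36.8 in the same order. In bulk libraries, fewer cells with an RNA and less of it per cell cannot be told apart.

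The higher members included 5 surface receptors. Cells read hormones, lipids and cytokines through such receptors, and most of the following couple to G proteins. IL13RA2, a decoy receptor for interleukin 13 on the X chromosome (chrX:115003975-115019977, minus strand), stood at 47.9, 60.1 and 66.5 gene TPM in the 3 BE(2)C libraries and was listed at 0 in every other library. CYSLTR2, a receptor for cysteinyl leukotrienes, stood at 61.6, 38.5 and 47.7 and ran from 0 to 0.200 elsewhere, a gap of 192. PTGER2, the EP2 receptor for prostaglandin E2, had 115, 94.3 and 129 in BE(2)C. Its values were 0.526, 3.19 and 2.25 in Kelly and 0.119, 0.494 and 0.449 in SH-SY5Y, so the Kelly libraries also varied among themselves. NPY2R, a receptor for neuropeptide Y, ran from 27.1 to 43.9 in BE(2)C and from 0.957 to 2.22 in the other libraries. LTK, a receptor tyrosine kinase closely related to ALK, ran from 15.1 to 20.5 against 0.0828 to 1.42. ALK itself lay on the other side of the comparison and just missed the rule, with 11.3 to 14.8 in BE(2)C and 58.3 to 107 elsewhere.

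Secreted ligands and binding proteins formed another group of the higher members. ADCYAP1 encodes PACAP, a neuropeptide of sympathetic and adrenal cells. It stood at 92.997, 62.5 and 59.3 in BE(2)C, at 1.25, 1.45 and 4.11 in Kelly and was listed at 0 in all SH-SY5Y libraries. FGL1, a fibrinogen-like secreted protein, had 24.7, 18.3 and 26.9 in BE(2)C, and of the other libraries only Kelly 3 was above 0, at 0.178. CLU, the secreted chaperone clusterin, was the most abundant of the group in BE(2)C with 164, 150.04 and 199.95. It was intermediate in Kelly, at 31.2, 25.03 and 26.3, and low in SH-SY5Y, at 0.903, 4.39 and 3.61. IGFBP7, a binding protein of insulin-like growth factors, ran from 45.03 to 66.8 in BE(2)C with a highest value elsewhere of 8.33. KAZALD1, a secreted protein related to the same binding proteins, had a gap of 5.30.

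The neural guidance protein reelin stood out among the matrix and adhesion genes. RELN (chr7:103471784-103989516, minus strand) encodes this large glycoprotein, which guides the layering of migrating neurons. It stood at 153, 118 and 163 gene TPM in BE(2)C, 0, 0.0739 and 0.169 in Kelly and 0.856, 0.895 and 0.962 in SH-SY5Y, a gap of 122. EDIL3, an integrin-binding matrix protein, had 54.9, 52.6 and 54.4 in BE(2)C, 0, 0 and 0.110 in Kelly and 6.06, 7.27 and 7.002 in SH-SY5Y. BGN, the small proteoglycan biglycan, showed the opposite order of the other lines. Its values were 71.5, 70.3 and 80.3 in BE(2)C, 7.68, 15.2 and 14.7 in Kelly and 0, 0.0313 and 0 in SH-SY5Y. ADAMTS19, a secreted metalloprotease, ran from 62.9 to 80.6 in BE(2)C, 10.997 to 13.3 in Kelly and 3.97 to 4.77 in SH-SY5Y. COL22A1, a collagen, and the protocadherins PCDH10 and PCDHGB1 were all under 16 even in BE(2)C, with gaps of 5.57, 4.36 and 4.84. PCDHGB1 shares its last exons with the other genes of its cluster, so its value is uncertain.

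Among calcium- and membrane-binding proteins, S100A11 had the widest separation. This small calcium-binding protein works with annexins at membranes. It stood at 136, 120.1 and 109 in BE(2)C, 0, 1.06 and 0.385 in Kelly and 0, 0.358 and 0.360 in SH-SY5Y. ANXA2, an annexin that links membranes to actin, had 80.8, 47.4 and 43.9 in BE(2)C, 6.01, 9.64 and 4.90 in Kelly and 1.57, 0.294 and 0.730 in SH-SY5Y. The tetraspanin TSPAN8 varied within BE(2)C, at 57.5, 23.001 and 24.4, and reached 1.43 elsewhere. FRMD3, a membrane-skeleton protein, and EHD2, an ATPase of caveolae, ran from 33.6 to 40.3 and from 21.2 to 31.6 in BE(2)C, with gaps of 12.9 and 8.29.

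The higher members TRPA1 and KCNT1 are ion channels. TRPA1, an irritant-sensing cation channel of sensory neurons, was at 25.98, 26.5 and 28.5 against 0.721 to 2.24. KCNT1, a sodium-activated potassium channel, was at 23.4, 23.03 and 35.7 in BE(2)C, and among the other lines it was the SH-SY5Y libraries that came closest, at 2.63, 4.60 and 1.61. Other channel genes were called in both directions by limma, a linear model fitted to log2(scaled TPM + 1) over all genes, with calls at an adjusted p under 0.05. In a list of potassium, sodium and calcium channels it called 11 of 41 tested genes higher and 20 lower in BE(2)C than in the mean of the other lines, beside 27.9% higher and 31.0% lower over all tested genes. Without any 1 Kelly library 36 were tested, with 9 or 10 called higher and 14 or 15 lower. Without any 1 BE(2)C library 39 or 40 were tested. The filter on low values therefore partly sets these counts. The list's median log2 difference was -0.55, and ran from -0.73 to -0.18 over 18 alternative settings.

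CDKN2A, PHLDA1, PTPRR and NDN were further higher members. CDKN2A encodes the cell-cycle inhibitors p16 and ARF. It stood at 114, 87.3 and 93.2 gene TPM in BE(2)C, 4.18, 5.34 and 5.04 in Kelly and 3.87, 4.20 and 4.58 in SH-SY5Y, 3 tight groups of which the latter 2 overlapped. PHLDA1, an early-response gene, had 25.6, 38.7 and 48.8 in BE(2)C and at most 2.56 elsewhere. PTPRR, a phosphatase that acts on MAP kinases, ran from 10.5 to 15.4 against 0.346 to 1.30. NDN, the imprinted growth suppressor necdin, ran from 11.4 to 18.7 against 1.14 to 2.56.

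Enzymes higher in BE(2)C came from unrelated routes. METTL7A, a methyltransferase of lipid droplets and the endoplasmic reticulum, had the highest level of all higher members, at 291, 266 and 283 in BE(2)C, 49.8, 38.03 and 41.03 in Kelly and 34.5, 40.4 and 34.6 in SH-SY5Y. BCHE, butyrylcholinesterase, was at 126, 102 and 102 in BE(2)C, 20.5, 22.97 and 22.8 in Kelly and 0.0399, 0 and 0 in SH-SY5Y. NT5E, the ectoenzyme CD73 that makes adenosine, ran from 30.9 to 43.99 against 0.217 to 2.53. The bile acid carrier FABP6 was in the same range, from 47.2 to 70.8 in BE(2)C with a highest other value of 4.97. AKR1C3, a steroid and prostaglandin reductase, stood at 47.7, 18.9 and 19.02, so BE(2)C 1 was above its sister libraries. AKR1C3 has near-identical relatives that could share its reads. HTATIP2 was at 11.1, 13.5 and 10.3 and listed at 0 elsewhere.

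Transcription factors of the higher side were few and modest in level. HOXC10, a posterior homeobox gene, stood at 16.3, 14.01 and 19.96 in BE(2)C, 0.431, 0.147 and 0.378 in Kelly and 0 in SH-SY5Y. FOXD1, a forkhead factor, ran from 10.6 to 13.4, and SOX18, an endothelial SOX factor, from 19.04 to 26.04, with highest other values of 1.98 and 4.48. The germline gene TDRD1 (chr10:114179270-114232304, plus strand), whose Tudor domains bind PIWI proteins, had the widest measurable gap of the higher side. Its BE(2)C values were 35.5, 22.8 and 24.4, and of the other libraries only Kelly 3 was above 0, at 0.0604. CRYGD, a lens crystallin, was at 28.1, 29.1 and 24.1 and listed at 0 elsewhere. CRIP1, a LIM-domain protein, the histone variant gene H2AFJ, the ubiquitin ligase TRIM47 and AC213203.1 completed the list with gaps of 5.81, 5.02, 6.63 and 9.21. AC213203.1 had no position in the annotation used.

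**Figure D2:**
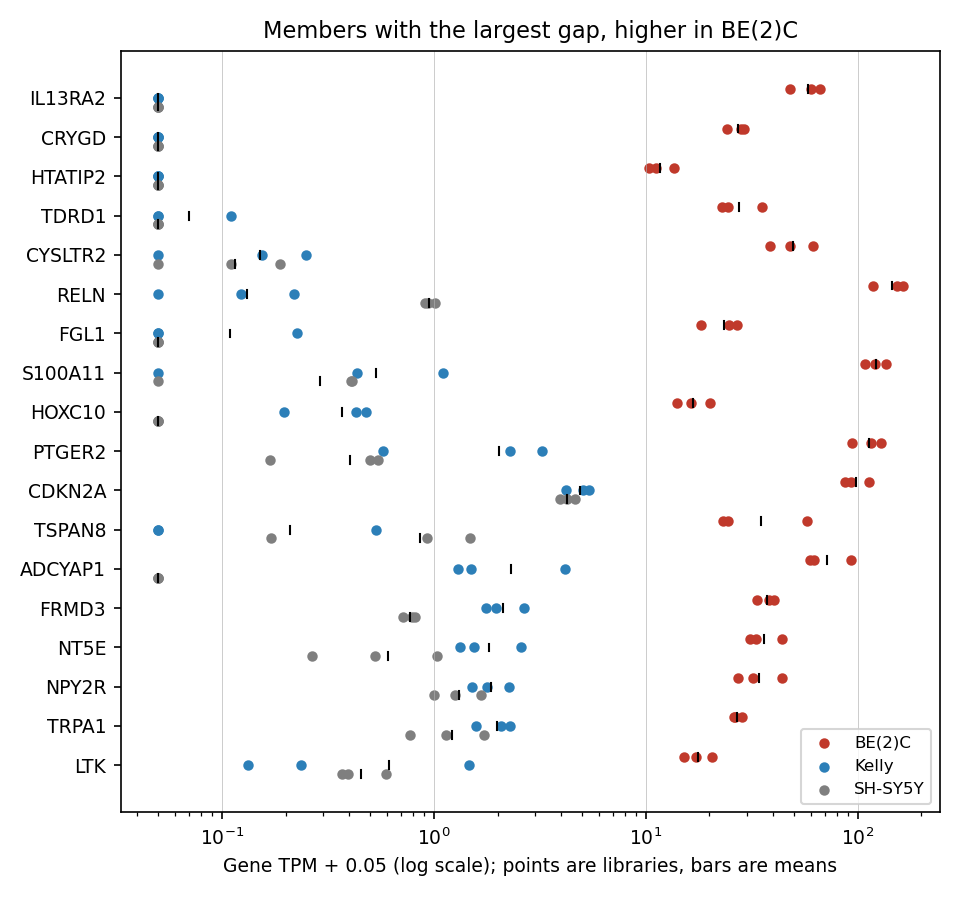
Gene TPM with 0.05 added (log axis) in each library for the named higher members listed at 0 elsewhere and those with the widest gaps; points are libraries coloured by line, bars are line means. All BE(2)C points lie right of every Kelly and SH-SY5Y point, and RELN, S100A11 and PTGER2 exceed 90 in each BE(2)C library.

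The collagen genes COL4A1 and COL4A2 were lower members. Type IV collagen is the sheet-forming collagen of basement membranes, built from alpha chains of which alpha 1 and alpha 2 are the most common. COL4A2 stood at 3.16, 2.02 and 1.90 gene TPM in BE(2)C, 95.6, 109.8 and 108 in Kelly and 112, 108 and 98.6 in SH-SY5Y. COL4A1 stood at 0.909, 0.577 and 0.332 in BE(2)C, 20.2, 23.5 and 25.6 in Kelly and 27.6, 28.6 and 27.01 in SH-SY5Y. Both were lower in every BE(2)C library than in any other library, with gaps of 30.2 and 22.3, while Kelly and SH-SY5Y lay close together. Of the difference between these lines limma gave a log2 difference of 0.11 ± 0.13 (SE; adjusted p = 0.497) for COL4A2 and a log2 difference of -0.13 ± 0.17 (SE; adjusted p = 0.562) for COL4A1, neither a call.

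COL4A1 and COL4A2 lie head to head on chromosome 13 and share their promoter region, which is why their start regions are shown. The windows run from 250 bases before to 50 bases after each RefSeq start (GRCh38.p14), COL4A1 on the minus strand at chr13:110307108-110307407 and COL4A2 on the plus strand at chr13:110307034-110307333. They overlap by 226 bases, from 110307108 to 110307333. Capitals mark the CCAAT box, read as ATTGG on the opposite strand, which is the same site in both windows.
COL4A1: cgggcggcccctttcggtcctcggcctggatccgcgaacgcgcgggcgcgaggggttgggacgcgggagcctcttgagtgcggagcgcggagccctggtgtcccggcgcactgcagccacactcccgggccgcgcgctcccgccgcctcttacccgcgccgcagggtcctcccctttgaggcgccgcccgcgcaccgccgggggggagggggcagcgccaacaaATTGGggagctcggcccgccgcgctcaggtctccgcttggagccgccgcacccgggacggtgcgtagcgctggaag
COL4A2: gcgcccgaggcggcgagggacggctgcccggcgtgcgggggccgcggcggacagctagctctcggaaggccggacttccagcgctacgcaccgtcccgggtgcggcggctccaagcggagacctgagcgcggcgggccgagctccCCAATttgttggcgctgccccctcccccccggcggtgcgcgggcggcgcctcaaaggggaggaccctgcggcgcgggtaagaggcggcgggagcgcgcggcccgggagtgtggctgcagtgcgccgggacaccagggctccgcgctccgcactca
Each window held 45 CpG dinucleotides, with a GC content of 76.7% and 77.7%.

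Other matrix genes of the lower side fell into basement membrane, fibrillar and neural matrix. NCAN (chr19:19211973-19252233, plus strand) encodes neurocan, a proteoglycan of brain matrix, and had the widest measurable gap of all members, 592. It was at 0, 0.0310 and 0 in BE(2)C, 20.6, 19.7 and 18.4 in Kelly and 20.99, 26.7 and 25.8 in SH-SY5Y. TNR, tenascin R of perineuronal nets, was listed at 0 in BE(2)C and stood at 12.1, 10.7 and 11.7 in Kelly and 11.4, 11.1 and 11.7 in SH-SY5Y. CRTAC1, a cartilage and neural matrix protein, ran from 1.01 to 1.65 against 20.4 to 30.5. FBLN2, the elastic-fibre protein fibulin 2, was at 0.391, 0.568 and 0.323 in BE(2)C and from 10.95 to 15.5 elsewhere. COL6A2, a chain of beaded-filament collagen, had a smaller gap of 5.71, at 5.75, 10.6 and 10.6 in BE(2)C against 60.6 to 72.1. PXDN, a peroxidase that crosslinks type IV collagen, was at 3.43, 5.25 and 6.44 in BE(2)C and 36.3, 37.6 and 49.8 in Kelly, and far higher in SH-SY5Y at 294, 297 and 291. FSTL1, a secreted follistatin-like protein, had a gap of 6.10.

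Several lower members encode adhesion molecules of the synapse. Neurexins on the sending side bind neuroligins on the receiving side, and sidekicks and SynCAM proteins add like-with-like contacts. CADM3, a SynCAM, stood at 0.206, 0.224 and 0.197 in BE(2)C, 23.7, 24.5 and 25.5 in Kelly and 54.7, 54.2 and 56.3 in SH-SY5Y. The neuroligin NLGN4X was at 0.108, 0 and 0.143 in BE(2)C against 13.96 to 19.2 elsewhere, and NLGN2 at 15.5, 15.3 and 20.4 against 91.1 to 159. In BE(2)C the listed values of NLGN2 were thus well above those of NLGN4X, which lay near 0. NRXN2, a neurexin, was at 2.40, 1.999 and 2.77 in BE(2)C, 32.3, 29.9 and 34.7 in Kelly and 35.04, 34.6 and 36.5 in SH-SY5Y. SDK1, a sidekick, was at 0.0114, 0.288 and 0.251 against 25.7 to 28.8. LRRC4B, a postsynaptic leucine-rich repeat protein, was at 1.31, 1.19 and 2.48 in BE(2)C, 65.1, 54.1 and 50.7 in Kelly and 114, 122 and 107 in SH-SY5Y.

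The lower members GRIK5, CACNG7 and DLG4 belong to glutamate receptors and their scaffold. GRIK5, a kainate receptor subunit, stood at 7.47, 6.76 and 9.82 in BE(2)C against 88.6 to 128. CACNG7, which escorts AMPA receptors, stood at 2.97, 5.31 and 3.53 in BE(2)C, 36.3, 37.96 and 48.8 in Kelly and 119.9, 146 and 122 in SH-SY5Y. DLG4, the scaffold PSD-95 that anchors glutamate receptors and neuroligins, stood at 5.15, 7.10 and 9.64 against 51.7 to 63.1. All 3 were lower in each BE(2)C library by gaps of 9.03, 6.85 and 5.36. HOMER1, another postsynaptic scaffold, lay just outside the rule with 3.17 to 3.31 in BE(2)C and 13.2 to 17.99 elsewhere.

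Some lower members take part in vesicle release or peptide processing, while related genes were called in both directions. In a list of synaptic release and neuronal cytoskeleton genes, which holds 1 lower member, limma called 24 of 44 tested genes lower and 15 higher (31.0% and 27.9% over all tested genes). The median log2 difference was -0.36, and ran from -0.75 to -0.29 over 18 alternative settings. DOC2B, a calcium sensor of vesicle fusion, was at 2.74, 3.31 and 3.37 in BE(2)C, 70.8, 68.4 and 70.6 in Kelly and 75.1, 81.7 and 75.5 in SH-SY5Y. CPE, carboxypeptidase E, trims neuropeptide precursors in dense-core granules. It was at 3.55, 5.40 and 5.94 in BE(2)C against 68.5 to 114. RAB6B, a neuronal Golgi GTPase, separated all lines, at 1.04, 1.56 and 0.429 in BE(2)C, 76.9, 63.9 and 62.01 in Kelly and 19.6, 24.4 and 17.4 in SH-SY5Y. The calcium sensor SYT3 and HID1, a protein of dense-core granule formation, had gaps of 6.56 and 6.10. Calcium-handling genes joined them. VSNL1, a neuronal calcium sensor, ran from 0.193 to 0.535 against 12.3 to 24.1, SLC8A3, a sodium-calcium exchanger, from 0.0855 to 0.397 against 10.4 to 17.8, and CCDC109B, a subunit of the mitochondrial calcium uniporter, from 0.00772 to 0.360 against 12.4 to 18.5. CNNM1, a protein of the CNNM cation transporter family, had a gap of 7.10.

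Other adhesion and neurite genes showed wide gaps. FAT1, a giant cadherin, was at 0.139, 0.148 and 0.257 in BE(2)C, 39.1, 34.8 and 40.1 in Kelly and 16.7, 16.9 and 17.6 in SH-SY5Y. EMB, the adhesion protein embigin, ran from 0.127 to 0.478 against 14.8 to 23.05. CNTN2, an axonal contactin, ran from 0.243 to 0.767 against 11.1 to 20.4. KIAA1549L, a membrane protein, was at 0, 0.0853 and 0.0465 in BE(2)C, against 16.1 to 27.6. ISLR2, a neural membrane protein, was lowest in BE(2)C at 2.86, 2.83 and 2.84, yet its larger step lay between Kelly, at 12.8, 27.04 and 20.8, and SH-SY5Y, at 311, 318 and 299. The choline transporter-like gene SLC44A5 and the neuronal gene SEZ6L had gaps of 9.01 and 7.38. LINGO1, IGSF9 and the cadherin CDH11 lay closer to the threshold, with gaps of 5.32, 4.30 and 4.01.

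Cytoskeletal genes included 3 kinases that act on microtubules or their partners. MARK1, which phosphorylates tau and its relatives, stood at 0.726, 0.298 and 0.830 in BE(2)C against 36.6 to 51.1. TTBK1, a tau kinase of neurons, stood at 6.28, 2.91 and 4.48 in BE(2)C, 60.01, 57.98 and 57.1 in Kelly and 60.1, 69.4 and 62.4 in SH-SY5Y. DCLK1, a doublecortin-like kinase, ran from 2.13 to 3.43 against 19.8 to 29.9. NES, the progenitor filament nestin, had the highest BE(2)C level of all lower members. It was at 42.2, 34.3 and 39.6 in BE(2)C, 263, 263 and 261 in Kelly and 209, 212 and 209 in SH-SY5Y. FMN2, an actin nucleator, was even across libraries, from 2.80 to 2.90 in BE(2)C and 13.4 to 17.8 elsewhere. TUBA1C, an alpha tubulin, was at 7.90, 4.63 and 6.66 in BE(2)C, but tubulin genes have near-identical copies and its value is uncertain.

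3 genes known to respond to p53, the stress-activated transcription factor, were members, all on the lower side. PHLDA3, an inhibitor of AKT signalling, stood at 0.310, 0.451 and 0.514 gene TPM in BE(2)C, 60.7, 61.4 and 50.8 in Kelly and 63.2, 58.3 and 64.8 in SH-SY5Y. TNFRSF10B, the death receptor DR5, stood at 2.68, 3.45 and 2.60 in BE(2)C, 68.1, 75.3 and 93.01 in Kelly and 96.9, 109 and 96.7 in SH-SY5Y. EDA2R (chrX:66595637-66639298, minus strand), the ectodysplasin A2 receptor, stood at 0, 0.0577 and 0 in BE(2)C against 14.02 to 19.1. Kelly and SH-SY5Y were close in each: limma gave a log2 difference of 0.03 ± 0.14 (SE; adjusted p = 0.893) for PHLDA3, a log2 difference of -0.23 ± 0.15 (SE; adjusted p = 0.247) for TNFRSF10B and a log2 difference of 0.35 ± 0.16 (SE; adjusted p = 0.0918) for EDA2R. Over a list of 32 p53 target genes that were tested, limma called 15 lower and 3 higher in BE(2)C than in the mean of the other lines, and 14 were not called. All tested genes gave 31.0% lower and 27.9% higher. The list's median log2 difference was -0.37, against -0.03 over all tested genes, and ran from -0.62 to -0.20 over 18 alternative settings. Genes of the list called higher were TP53I3, GADD45B and ABCA12, with log2 differences of 1.85, 2.68 and 1.87.

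Some lower members are cancer-testis antigens, germline genes expressed in tumours. Such genes are silent in most adult tissues outside the testis. MAGEA12 was listed at 0 in BE(2)C and stood at 28.2, 22.1 and 22.9 in Kelly and 42.9, 64.7 and 53.4 in SH-SY5Y. MAGEA6 was likewise listed at 0 in BE(2)C and stood at 14.7, 11.8 and 14.6 in Kelly and 63.3, 46.8 and 65.6 in SH-SY5Y. PRAME, a repressor of retinoid signalling, was at 1.21, 1.08 and 0.904 in BE(2)C, 32.2, 20.2 and 39.4 in Kelly and 37.05, 30.5 and 29.97 in SH-SY5Y. GTSF1, a factor of the piRNA pathway, was at 0.118, 0.919 and 0.0820 in BE(2)C, 64.9, 77.7 and 74.5 in Kelly and 11.3, 14.05 and 15.97 in SH-SY5Y. It stood opposite to TDRD1, another piRNA pathway gene. In the list of cancer-testis antigens, limma called 19 of 21 tested genes lower and 2 higher, beside 31.0% and 27.9% over all tested genes, with a median log2 difference of -1.93. The filter on low values partly sets these numbers, since a gene high in 1 line alone can pass through the libraries of that line. Without any 1 Kelly library 15 genes were tested and without any 1 SH-SY5Y library 17, against 21 without any 1 BE(2)C library. With no filter, 19 of 34 were called lower and the median was -0.91. It was -3.37 to -3.45 without 1 SH-SY5Y library, and -3.41 with a filter of 5 or more in at least 3 libraries. The count and the median therefore support nothing about the members. Those called higher were MAGEB2, at 1.44, and LIN28B, at 1.51. Many genes of this list are near-identical copies, so neither their values nor their number are independent.

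MAGEA12 and MAGEA6 lie on the X chromosome on opposite strands, with 28.5 kb between their annotated gene spans. Their start regions are shown because methylation of CpG sites is the known means of silencing of this family; no methylation was measured here. MAGEA12 is at chrX:152733507-152733806 (plus strand) and MAGEA6 at chrX:152769640-152769939 (minus strand). Capitals mark CpG dinucleotides, 9 in MAGEA12 and 19 in MAGEA6.
MAGEA12: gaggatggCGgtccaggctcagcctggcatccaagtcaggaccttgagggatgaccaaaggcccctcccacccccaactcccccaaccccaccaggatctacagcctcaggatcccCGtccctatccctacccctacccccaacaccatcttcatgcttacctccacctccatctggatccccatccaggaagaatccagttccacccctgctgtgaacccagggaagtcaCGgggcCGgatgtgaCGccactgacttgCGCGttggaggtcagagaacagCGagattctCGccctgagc
MAGEA6: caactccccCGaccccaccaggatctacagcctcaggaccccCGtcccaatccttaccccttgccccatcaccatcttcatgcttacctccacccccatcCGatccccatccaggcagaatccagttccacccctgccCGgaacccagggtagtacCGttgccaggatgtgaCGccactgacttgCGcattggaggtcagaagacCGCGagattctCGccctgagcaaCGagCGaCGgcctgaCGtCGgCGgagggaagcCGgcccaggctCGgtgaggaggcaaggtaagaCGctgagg
Over 225 aligned bases, 203 were identical (90.2%), and reads could be split between such copies.

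Imprinted genes, expressed from a single parental copy, were found on both sides. PEG3 (chr19:56810077-56840728, minus strand), a zinc-finger gene, stood at 0.0717, 0.114 and 0.0510 in BE(2)C, 13.4, 15.8 and 13.1 in Kelly and 19.1, 23.2 and 22.4 in SH-SY5Y. NNAT, the membrane protein neuronatin, stood at 3.55, 3.12 and 8.28 in BE(2)C, 148, 163 and 175 in Kelly and 289.6, 288 and 306 in SH-SY5Y. RTL1, a retrotransposon-derived gene, stood at 6.59, 12.8 and 17.2 in BE(2)C against 107 to 216. MKRN3, a ubiquitin ligase, stood at 0.175, 0.391 and 0.348 in BE(2)C, 21.9, 22.7 and 22.9 in Kelly and 15.1, 16.7 and 16.7 in SH-SY5Y. Its neighbour NDN ran the other way, at 18.7, 11.4 and 15.7 in BE(2)C, 1.73, 2.07 and 1.14 in Kelly and 1.90, 2.56 and 1.88 in SH-SY5Y. Both belong to the paternally expressed genes of chromosome 15, and their annotated gene spans lie 55.3 kb apart. Of 27 imprinted genes tested, limma called 15 lower and 7 higher in BE(2)C, beside 31.0% lower and 27.9% higher over all tested genes. The list holds 4 lower members and 1 higher member, which the rule chose on the same contrast. Its median log2 difference was -0.95. That median was -0.50 to -0.61 without 1 SH-SY5Y library, -0.49 with the values as deposited and -0.30 with no filter. Among those called higher, the growth factor gene IGF2 had means of 1339 ± 260 in BE(2)C (SD, n = 3), 1663 ± 166 in Kelly and 2.55 ± 0.437 in SH-SY5Y, so that BE(2)C was not the highest line.

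MKRN3 and NDN are shown as neighbours with opposite orders of the lines. MKRN3 starts at chr15:23565424-23565723 (plus strand) and NDN at chr15:23687256-23687555 (minus strand). Capitals mark CpG dinucleotides.
MKRN3: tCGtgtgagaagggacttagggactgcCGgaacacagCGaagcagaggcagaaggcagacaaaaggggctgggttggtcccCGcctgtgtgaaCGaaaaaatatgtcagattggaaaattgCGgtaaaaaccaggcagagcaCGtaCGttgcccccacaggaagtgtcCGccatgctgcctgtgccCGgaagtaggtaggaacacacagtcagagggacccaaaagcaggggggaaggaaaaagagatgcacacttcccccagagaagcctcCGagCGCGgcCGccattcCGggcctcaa
NDN: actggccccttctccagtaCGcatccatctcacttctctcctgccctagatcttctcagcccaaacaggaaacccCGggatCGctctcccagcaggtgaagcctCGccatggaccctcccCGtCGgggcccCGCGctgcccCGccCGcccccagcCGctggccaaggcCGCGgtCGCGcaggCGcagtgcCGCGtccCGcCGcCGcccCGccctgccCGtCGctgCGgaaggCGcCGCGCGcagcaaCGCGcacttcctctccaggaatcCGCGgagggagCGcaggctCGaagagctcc
The MKRN3 window held 15 CpG sites at 57.0% GC, and the NDN window 35 at 72.0%.

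Transcription factors of the lower side included LMO1 and several homeobox genes. TEAD4, the DNA-binding partner of YAP and TAZ, stood at 0.497, 0.602 and 0.205 in BE(2)C, 62.9, 68.7 and 66.8 in Kelly and 38.9, 37.98 and 36.04 in SH-SY5Y. LMO1, a LIM-only cofactor known as a neuroblastoma susceptibility gene, stood at 2.03, 4.97 and 4.06 in BE(2)C, 154, 139 and 133 in Kelly and 127, 121 and 134 in SH-SY5Y. TLX3 and PRRX2 are homeobox genes. TLX3 was at 0, 0.531 and 1.27 in BE(2)C, 75.2, 62.1 and 66.2 in Kelly and 27.5, 32.8 and 27.4 in SH-SY5Y. PRRX2 ran from 0.621 to 2.12 in BE(2)C, 57.5 to 65.9 in Kelly and 27.1 to 28.2 in SH-SY5Y. Each of TEAD4, TLX3 and PRRX2 was higher in Kelly than in SH-SY5Y (limma, log2 differences of 0.93, 1.32 and 1.27). SATB1, a chromatin organiser, had the opposite order, from 45.3 to 66.9 in Kelly and 147 to 154 in SH-SY5Y, and 7.54 to 8.80 in BE(2)C. KLF11, the clock gene PER3, the zinc-finger genes ZNF595, ZNF853 and ZNF334, MDFI, ING4 and CUX2 had gaps from 4.73 to 8.50.

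Signalling genes of the lower side spanned Hedgehog, G-protein and kinase pathways. SMO, the membrane transducer of Hedgehog, stood at 5.42, 5.83 and 4.57 in BE(2)C, 71.7, 69.9 and 64.6 in Kelly and 76.5, 79.2 and 64.8 in SH-SY5Y. GPR161, a ciliary receptor that restrains Hedgehog, was low as well, from 0.787 to 1.53 in BE(2)C against 12.95 to 61.01. LPAR2, a receptor for lysophosphatidic acid, was at 1.18, 0.467 and 1.32 in BE(2)C, 41.4, 37.96 and 36.5 in Kelly and 63.8, 56.4 and 57.8 in SH-SY5Y. F2R, the thrombin receptor PAR1, was at 1.13, 0.726 and 0.486 in BE(2)C, 13.8, 16.7 and 16.6 in Kelly and 37.2, 45.2 and 53.9 in SH-SY5Y. The endocytic receptor LRP1 ran from 5.35 to 7.40 against 37.4 to 54.04. GNG11, a G-protein gamma subunit, differed most between the other lines, from 14.3 to 18.3 in Kelly and 182 to 194 in SH-SY5Y. YES1, a SRC-family kinase, was at 0.985, 1.61 and 0.843 in BE(2)C against 22.8 to 36.04. The phosphatase subunit PPP2R2C, the RAS relative MRAS, the protein kinase A subunit PRKAR1B, the MAP kinase phosphatase DUSP2 and the protein kinase C isoform PRKCD had gaps from 8.87 to 24.1.

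Enzymes of amine, amino acid and lipid metabolism made up a further group. MAOA, which breaks down noradrenaline and serotonin, stood at 2.65, 2.07 and 1.76 gene TPM in BE(2)C, 179, 166 and 172 in Kelly and 69.7, 68.2 and 70.8 in SH-SY5Y. GLDC, the decarboxylase of the glycine cleavage system, stood at 0.217, 0.263 and 0.216 in BE(2)C, 25.4, 22.8 and 22.01 in Kelly and 36.8, 38.98 and 37.3 in SH-SY5Y. ELOVL2, an elongase of polyunsaturated fatty acids, stood at 0.717, 0.645 and 0.951 in BE(2)C against 32.4 to 51.8. The groups did not overlap in any of them, as the rule requires. PDK1, a kinase that shuts off pyruvate dehydrogenase, PON2, a lactonase, and AK4, a mitochondrial adenylate kinase, had gaps of 7.87, 6.49 and 4.67. UBE2L6, the conjugating enzyme of ISG15, was at 1.17, 1.78 and 1.48 in BE(2)C, 56.1, 44.3 and 45.6 in Kelly and 110.1, 116 and 103 in SH-SY5Y. UBE2E2, the NOTCH regulator DTX1, the autophagy kinase ULK2 and FBXO44 followed with gaps of 9.65, 6.83, 5.22 and 5.12. Members given no role group were 51, all on the lower side, with gaps of 4.02 to 66.1 and 2 of them, MAP7D2 and VAT1L, listed at 0 in BE(2)C. MAP7D2, a microtubule-binding protein, ran from 69.2 to 71.6 in Kelly and 29.5 to 32.1 in SH-SY5Y, and VAT1L from 25.7 to 42.6 elsewhere. TMEM179, TBC1D30 and HSPA12A had gaps of 66.1, 63.5 and 45.3.

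**Figure D3:**
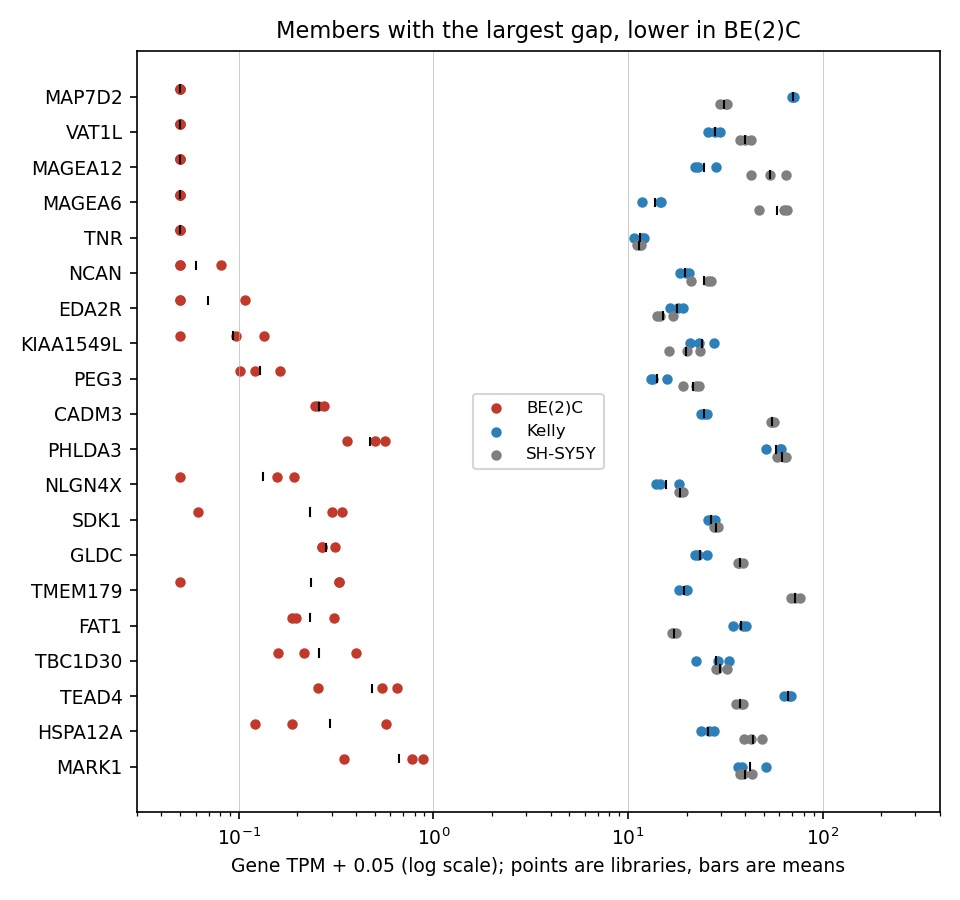
Gene TPM with 0.05 added (log axis) in each library for the lower members listed at 0 in BE(2)C and those with the widest gaps; points are libraries coloured by line, bars are line means. Every BE(2)C point lies below 1 and every Kelly and SH-SY5Y point above 10.

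The lines other than BE(2)C were compared for the members, since the difference between them was not used to choose the members. The rule did bound their values, from above in the higher members and from below in the lower ones, so the counts are a description. Over all 13077 tested genes, limma called 28.1% higher and 27.2% lower in Kelly than in SH-SY5Y, 55.3% in all. Of the 44 higher members, 18 were called higher in Kelly, 4 lower and 22 not called. Of the 146 lower members, 26 were called higher in Kelly, 49 lower and 71 not called, so that 51.4% were called. The median absolute log2 difference was 0.63 over the higher members and 0.49 over the lower ones, against 0.54 over all tested genes. Among the higher members, BCHE differed most, with a log2 difference of 4.45 ± 0.12 (SE; adjusted p = 1.75e-08). BGN and CLU followed with a log2 difference of 3.63 ± 0.23 (SE; adjusted p = 1.34e-06) and a log2 difference of 3.05 ± 0.32 (SE; adjusted p = 4.35e-05), while EDIL3 was lower in Kelly with a log2 difference of -2.74 ± 0.15 (SE; adjusted p = 5.88e-07). Among the lower members, ISLR2 (log2 difference -3.79) and GNG11 (-3.36) were lowest in Kelly relative to SH-SY5Y, and STK26 (2.66) and TUBA1C (2.48) highest. The largest spike-in difference between these lines was 1.38 on the log2 scale, and whether it bears on calls below that size was not tested.

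**Figure D4:**
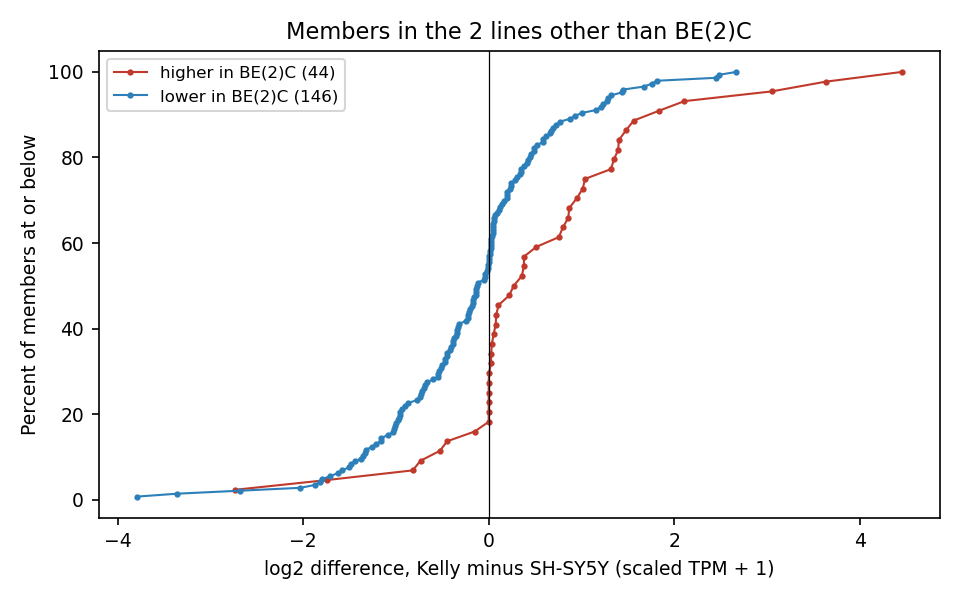
Cumulative share of the 44 higher members (red) and the 146 lower members (blue) by their log2 difference between Kelly and SH-SY5Y (scaled TPM plus 1, positive where Kelly is higher). The higher members reach from EDIL3 to BCHE (4.45), and the lower members from ISLR2 (-3.79) to STK26 (2.66).

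Wider gene lists place the members among related genes. For these limma compared BE(2)C with the mean of the other lines; the rule used the same contrast, so the counts are a description. Its calls over all 13077 tested genes were 3651 higher (27.9%) and 4054 lower (31.0%), the background to each list below. Of these calls 47.4% were higher. Higher calls made up 22.1% of calls with plain library totals, 37.7% without mitochondrial genes in the total and 31.0% with deposited values. These settings moved the median of all genes by -0.35, -0.13 and -0.14 on the log2 scale. Extracellular matrix genes were called lower in 28 of 49 cases and higher in 12, with a median of -0.79 (-1.08 to -0.25 over 18 alternative settings, the last with no filter). Beside the members, LAMA1, a laminin chain, was listed at 0 in BE(2)C with means of 51.0 in Kelly and 9.43 in SH-SY5Y. Another laminin, LAMA4, was higher in BE(2)C, at 26.6 against 7.57 and 1.04. In the NOTCH pathway 15 of 26 genes were called lower and 6 higher (median -0.66, and -0.91 to -0.34 over the alternatives), DTX1 being the member. The filter partly sets the counts of the matrix and NOTCH lists too. Without any 1 Kelly library 45 matrix genes were tested, with 23 or 24 lower and 12 or 13 higher. Of NOTCH genes 24 were then tested, with 12 or 13 lower and 6 or 7 higher. S100 proteins and annexins were called higher in 9 of 14 cases and lower in 3 (median 0.46). Without any 1 BE(2)C library 11 were tested, with 6 called higher and 2 or 3 lower, so the filter on low values partly sets the number of higher calls. The median was 0.25 without BE(2)C replicate 3. With plain totals 5 were higher and 4 lower with a median of 0.08. In this list, S100A6 had a mean of 287 in BE(2)C against 0.982 in Kelly and 69.5 in SH-SY5Y. HOX genes were called higher in 7 of 14 cases and lower in 3, where all 7 of the higher genes are in the HOXC cluster and all 3 of the lower in the HOXD cluster. Without any 1 BE(2)C library 12 HOX genes were tested, with 4 or 5 called higher and 2 or 3 lower. Without any 1 library of the other lines 14 were tested, so the filter on low values partly sets the number of higher calls. The MHC class I and interferon list, which holds no member, gave 12 of 26 higher and 3 lower (median 0.60). With plain totals it was 10 of 27 higher and 4 lower (median 0.23), and with no filter 14 of 46 higher and 3 lower (median 0.09). The medians of these 5 lists, and of the cancer-testis and imprinted lists, kept their sign under plain totals, without mitochondrial genes, as deposited and with quantile normalization. Noradrenergic identity genes were split, with 16 of 34 higher and 13 lower, and their median of 0.13 turned to -0.23 with plain totals and -0.06 as deposited.

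**Figure D5:**
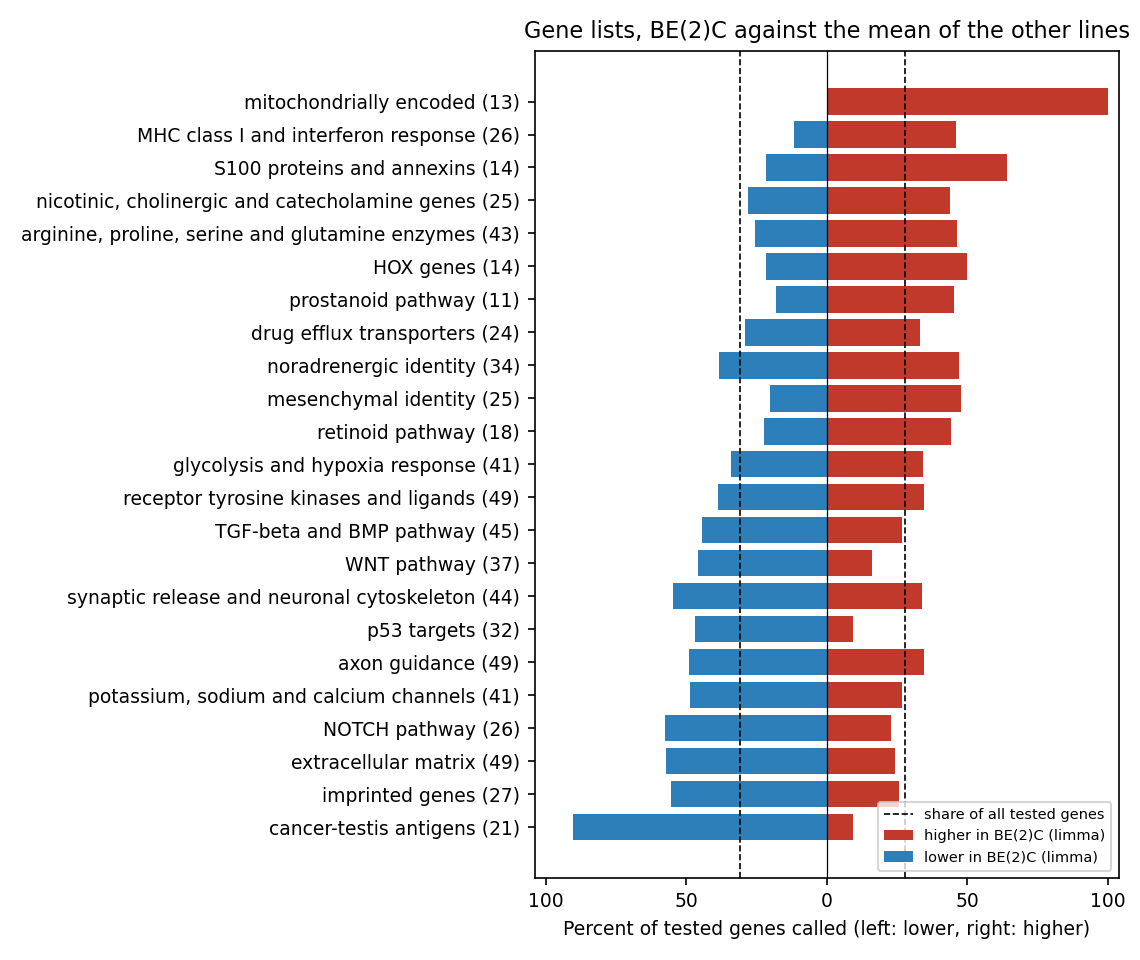
Percent of the tested genes of each list (number tested in brackets) that limma called higher (right, red) or lower (left, blue) in BE(2)C than in the mean of the other lines, sorted by median log2 difference; dashed lines give the share over all tested genes (27.9% higher, 31.0% lower). Cancer-testis antigens stand at the lower end and the 13 mitochondrially encoded genes, all called higher, at the upper end; with quantile normalization 5 of these 13 were called higher and 3 lower, and their median log2 difference was 0.11 in place of 1.21.

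Members were spread over the genome. On GENCODE release 29 (GRCh38), 43 of the higher and 144 of the lower members could be placed, all as protein-coding genes. Of the genes that reached 10 gene TPM in 3 or more libraries, 0.457% were higher members and 1.52% lower members. On the X chromosome 13 of 352 such genes (3.69%) were lower members, on chromosome 7 it was 13 of 482 (2.70%) and on chromosome 20 it was 7 of 275 (2.55%). Higher members were 6 of 449 such genes on chromosome 5 (1.34%), 4 of 338 on chromosome 8 (1.18%) and 6 of 513 on chromosome 12 (1.17%). Some members neighboured each other, with distances taken between annotated gene spans. LRRC4B and SYT3, both lower, lay 53.3 kb apart on chromosome 19, and DLG4 and NLGN2, both lower, 185 kb apart on chromosome 17. PTPRR and TSPAN8, both higher, lay 204 kb apart on chromosome 12. YES1 and ADCYAP1 lay 92.4 kb apart on chromosome 18 and ran in opposite directions.

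Start regions of the members were compared with those of expressed genes, the members among them. RefSeq windows were matched for 33 higher and 116 lower members and for 7929 of the 9621 genes that reached 10 gene TPM in 3 or more libraries. The median number of CpG dinucleotides was 20 in the higher members and 27 both in the lower members and in all these expressed genes. The E-box CACGTG, the same on both strands and a site that MYC proteins can bind, was in 9.09% of higher and 12.1% of lower members, against 10.7% of all. The CCAAT box (either strand) was in 24.2% and 24.1%, against 37.2%. The GC box GGGCGG (either strand) was in 60.6% and 69.8%, against 72.3%. TATAAA (either strand) was in 15.2% and 7.76%, against 4.77%. These matches describe letters in the windows, and no test was made of the differences.

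Members close to the threshold show how the rule divides a continuous range. Just inside on the higher side were SOX18, PCDH10 and BCHE, with gaps of 4.25, 4.36 and 4.42. Just outside were the electron-transfer gene ETFB, HS6ST3 and PRSS12, with 3.96, 3.87 and 3.72. On the lower side CDH11, CCDC181 and FAM210B lay just inside, at 4.01, 4.02 and 4.05. HOMER1, ENHO and ALK lay just outside, at 3.9998, 3.98 and 3.94. 70 of the 146 lower members and 20 of the 44 higher members had a gap below 8.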

How the data were processed

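Polyadenylated RNA of BE(2)C, Kelly and SH-SY5Y cells (3 libraries each) was measured by RNA sequencing. The authors deposited log10 values per gene, from the values themselves log10(TPM + 1): undone, they sum to between 966592 and 980009 per library. Software named in the submitters' processing notes is Salmon 0.3.2 and HISAT 0.1.6, with the build GRCh38 and no roles. No source used here says how transcripts were joined into genes. TPM keeps no depth, so no counting interval is given.

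The log10 was undone, 92 spike-in and 11 reporter or selection entries were dropped, and the 19734 gene entries were rescaled to a common total per library (gene TPM). Another 28 entries with calendar dates for symbols stayed in totals only. The number of unused columns was 0. The membership rule was applied to gene TPM. For tests, gene TPM was divided by a trimmed-mean factor with no count weights (trimming, per end, 30% by log ratio and 5% by log level), giving scaled TPM. limma 3.58.1 (R 4.3.3, trend) was fitted to log2(scaled TPM + 1) over all 9 libraries, for genes that reached 1 in 3 or more libraries. Calls have a two-sided Benjamini-Hochberg adjusted p under 0.05 over all 13077 genes. Log2 differences understate those of low genes. The fit was tested on simulated data.

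Members, gene lists, role groups and tests were chosen with earlier results of these data known. Members were named by gap, by list and by role (the widest gaps of each), and those nearest the threshold were added. The rule also picks 3 members that are counted but not reported here by name. CUX2 and STK26, outside that rule, were named after their values were seen. Non-members named beside the lists were chosen after their values were seen. Symbols were placed on GENCODE 29 directly (18678) or by another RefSeq symbol (523), and 505 were not placed. Alternatives changed scaling, pseudocount, filter, fold, minimum, replicate block and libraries.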

Additional observations from a re-analysis of the deposited data

How the results depend on the processing

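Member counts depended on the scale and on the thresholds of the rule. With the deposited values, where spike-ins take most of the total and the minimum of 10 is harder to reach, 10 genes were higher and 9 lower. An 8-fold rule left 24 and 76, and a 2-fold rule gave 105 and 453. With the mean rather than every value of the higher side at 10 or more, 244 were lower, and with every value at 30 or more 20 were higher and 46 lower. Without mitochondrial genes in the total, 63 were higher and 140 lower. Leaving out 1 library, which loosens the rule by its construction, gave 44 to 51 higher and 147 to 164 lower members. Of the 139 genes chosen for naming, 125 remained members with trimmed-mean factors, 133 without mitochondrial genes and 15 with deposited values.

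limma's calls for BE(2)C against the mean of the other lines were 1725 higher and 6086 lower with plain totals, and 1848 higher with deposited values. For Kelly against SH-SY5Y, deposited values gave 886 higher and 6461 lower calls, and the median log2 difference of all genes moved by -0.54. In the deposited values genes took a mean of 10.4% of the total in Kelly and 15.7% in SH-SY5Y, the rest being almost all spike-ins. The part of this in the calls was not tested. Quantile normalization, other pseudocounts, no filter and a stricter filter kept each count within 1.5 times. Without 1 library at a time, the counts were 3170 to 3571 higher and 3587 to 3785 lower for BE(2)C, and 3118 to 3748 and 2868 to 3612 for Kelly against SH-SY5Y. With the replicate number as a block, calls were 3541 and 3958 for BE(2)C, and 3540 and 3440 for Kelly against SH-SY5Y. Same-numbered libraries did not deviate together (correlations of -0.054 to 0.026 over 9 pairs, 0 above 0.1, own number best in 2 of 9), so the numbers give no pairing. Depth is unknown, and the values of low genes cannot be given a counting limit.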

Other observations

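Of the 11 reporter and selection entries of the table, the ampicillin selection marker was listed at 147 to 199 deposited TPM in the 9 libraries, while the other 10 reached at most 0.189 in any library.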
